A study of Mus musculus with 15 samples.

Results

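The 300 protein-coding genes with the highest mean level in mouse 2-cell embryos were described over 6 pools of 5 embryos each. Members were chosen by their mean FPKM over the 6 pools, out of 21963 protein-coding genes in a table of 53023 genes, so their high levels are what selected them and are given as a description. FPKM is the number of fragments per kilobase of gene and scaled to the assigned fragments of the library. No test was run on these levels, and spreads are standard deviations (SD) over the 6 pools.

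The embryos were of the ICR strain, fertilised in vitro, cultured in KSOM medium and collected 32 hours after insemination. The study disturbed nuclear actin by injecting mRNA for tagged actin carrying a nuclear localisation signal 2 hours after insemination. The titles and the annotation of the 6 pools contradict each other. Pools 1 and 4 are titled Wt and annotated as non-injected. Pools 2 and 5 carry the title R62D, but their annotation gives actinWT-HA-NLS as the injected mRNA. Pools 3 and 6 carry the title Non-injected control, but their annotation gives actinR62D-HA-NLS. All 6 pools were therefore treated alike, as 2-cell embryos whatever they had received, and no injected group was compared with another. The SD between pools includes any effect of the injections, and the labels do not say whether pools came from separate rounds of fertilisation. Pools are numbered as the columns of the table are. The other 9 samples of the series, which received mCherry-Exp6 with actinR62D-HA-NLS, actinG15S-HA-NLS or no injection, were not analysed here.

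In the mouse, the egg carries a store of messenger RNA laid down during oocyte growth. Much of that store is degraded after fertilisation, while the zygotic genome is switched on in waves, the major one at the 2-cell stage. Many oocyte messages are kept with short poly(A) tails and are lengthened or removed at maturation through elements near their 3′ ends. Mitochondria are inherited from the egg with their own genome and transcripts.

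Assigned reads, recovered from the FPKM values, numbered from 907210 to 1555431 per pool, and 12106 to 13926 protein-coding genes had a value above 0. All 16 marker genes of the 2-cell stage reached a mean of 1 FPKM, and 5 of them were members. Of 15 oocyte markers 14 reached that mean, and only 3, Dppa3, Oosp1 and Btg4, were members. The other oocyte markers ranked from 588 (Zp3) down to 11019 (Zar1). Markers of the cumulus cells that surround the egg summed to between 0.585 and 3.08 FPKM per pool, with 5 of 12 genes at 0 in every pool. Blood markers summed to between 9.11 and 81.8 FPKM, mostly the alpha globin genes Hba-a1 and Hba-a2, and the part of such cells in the results was not tested. Sperm markers summed to between 31.4 and 52.1 FPKM, mostly Ldhc, a lactate dehydrogenase, at a mean of 36.0 FPKM. Ldhc and Odf2 were above 0 in all 6 pools, and 5 genes of the list, among them the protamine gene Prm1, were at 0 in all. The source of the Ldhc transcripts was not tested. Markers of the blastocyst summed to between 14.3 and 22.9 FPKM, with Tfap2c (mean 9.64) and Fgf4 (4.73) above 0 in all 6 pools and the trophectoderm gene Cdx2 at 0 in all. Pools 4 and 6 stood apart from the other 4 in earlier results of these data, which are not shown here. The members kept, their share, their median spread and the genes with at least a 2-fold range were also computed without them. Other counts, such as those by class, were not.

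The 300 genes held 64.2% ± 3.17 (SD, n = 6) of the protein-coding FPKM. The lowest share was 59.5%, in pool 3, the median 64.6% and the highest 68.1%, in pool 4. The single highest gene held 5.80% ± 1.03, the 10 highest 30.5% ± 4.17 and the 100 highest 51.2% ± 3.78. It took 90 genes to reach 50% of the summed mean, 678 to reach 75% and 2163 to reach 90%. The 13 genes of the mitochondrial genome, all of them members, held 29.6% ± 5.20. Without these genes in members and total, the other 287 held 49.1% ± 2.09, and 302 genes were needed for 50%. Of the FPKM of all gene types, the 300 held 37.0% ± 1.17, and 194 genes of other types, mainly pseudogenes at the top, lay above the last member.

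**Figure D1:**
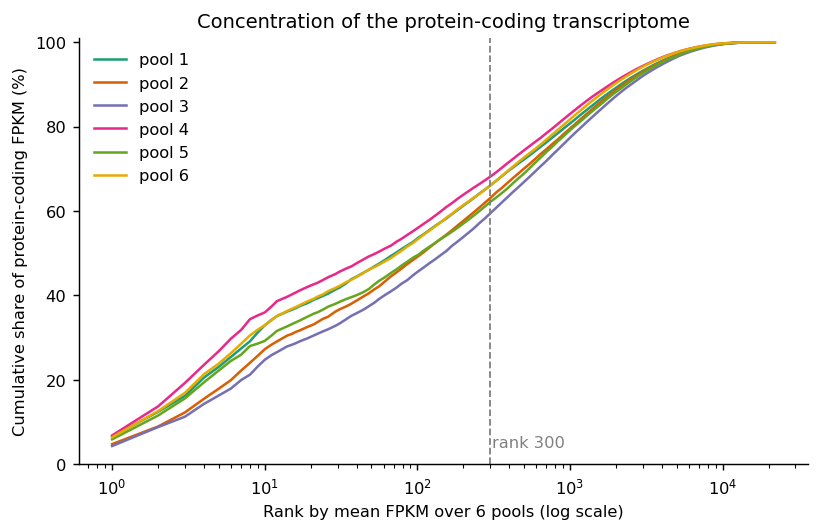
Cumulative share of protein-coding FPKM (%) against rank by mean FPKM (log scale), 1 line per pool. At rank 300 the lines lie between 59.5% (pool 3) and 68.1% (pool 4), and at rank 10 between 24.7% and 36.0%.

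Because FPKM divides by length, the ranking favours short genes over a ranking by reads. The 300 held 39.6% ± 2.46 of protein-coding reads. Ranked without the division by length, 188 of the 300 were kept. All 17 members of the cell cycle class were among those kept, but only 4 of 16 ribosomal proteins and 3 of 18 nuclear-encoded mitochondrial proteins.

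The threshold fell in a dense stretch of the ranking. The last members were Siah2 (174 ± 31.1 FPKM), Gm11758 (172 ± 53.8), Trim13 (172 ± 45.3), Zfp706 (171 ± 26.2) and Tiparp (171 ± 54.4). The first genes outside it were Gm11756 (170 ± 52.4), Rpl37a (170 ± 34.3), Wtap (169 ± 16.7), Ik (169 ± 24.1) and E2f5 (168 ± 50.5). These 10 means differ by far less than the SD of any of them. In each pool's own ranking, 194 members were among the 300 highest in all 6 pools, and every member was so in at least 2. When 5 pools made the ranking, between 247 and 273 of their 300 genes were among the 300 highest of the pool left out. The fewest were found with pool 5 (247), pool 4 (249) and pool 6 (254) left out. The share of these 300 genes in the left-out pool was 59.2% to 67.9%. Over the members, the Spearman correlation between pools ran from 0.725 to 0.930 in 15 pairs, which share the choice of genes.

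The mitochondrial genome supplied 10 of the first 15 ranks. Mt-Atp6, a subunit of ATP synthase, had a lowest value of 16453 FPKM, a median of 24419 and a highest of 28354. Mt-Cytb, the cytochrome b of complex III, ran from 16249 through 23133 to 28509 FPKM. These were ranks 1 and 2 in every pool, in either order. Mt-Co3, mt-Atp8 and mt-Nd1 followed with means of 15719 ± 4585, 15424 ± 2822 and 10338 ± 1925 FPKM. Mt-Co2 and mt-Co1, the other catalytic-core subunits of cytochrome oxidase, had means of 9125 ± 2020 and 7611 ± 1855. The NADH dehydrogenase subunits mt-Nd2 (4600 ± 556), mt-Nd4 (4062 ± 1000), mt-Nd5 (1825 ± 315), mt-Nd3 (1779 ± 254) and mt-Nd4l (1402 ± 219) were lower.

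The share of the mitochondrial genome was lowest in pool 3 (22.3%) and pool 2 (24.8%) and highest in pool 4 (36.7%), with 30.5% to 32.1% in the other 3. The median coefficient of variation (CV, the SD over the mean) of its genes was 20.6%, and 3 of 13 spanned at least a 2-fold range. Nuclear copies of mitochondrial DNA carry some of the same letters. Of the 50-base windows of mt-Atp6, 99.5% also occur in Gm10925, an annotated pseudogene on chromosome 1 at 27711 ± 5601 FPKM, and 99.9% of those of mt-Co3 occur in Gm28437 at 15973 ± 4638. In 7 of the 13 genes more than 50% of the windows occur in another gene, among them also mt-Co2 (100%), mt-Nd4l (98.8%) and mt-Nd3 (98.0%). How the authors counted reads that fit several genes is not given in the labels. The levels of these 7 genes, and with them the share of the mitochondrial genome, are therefore uncertain. Mt-Cytb, mt-Atp8, mt-Nd1 and mt-Nd6 shared no window with another gene. Their recovered reads were still not whole numbers in 6, 6, 5 and 4 pools, in that order. The lack of a shared window therefore does not show that their reads were counted for 1 gene only.

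**Figure D2:**
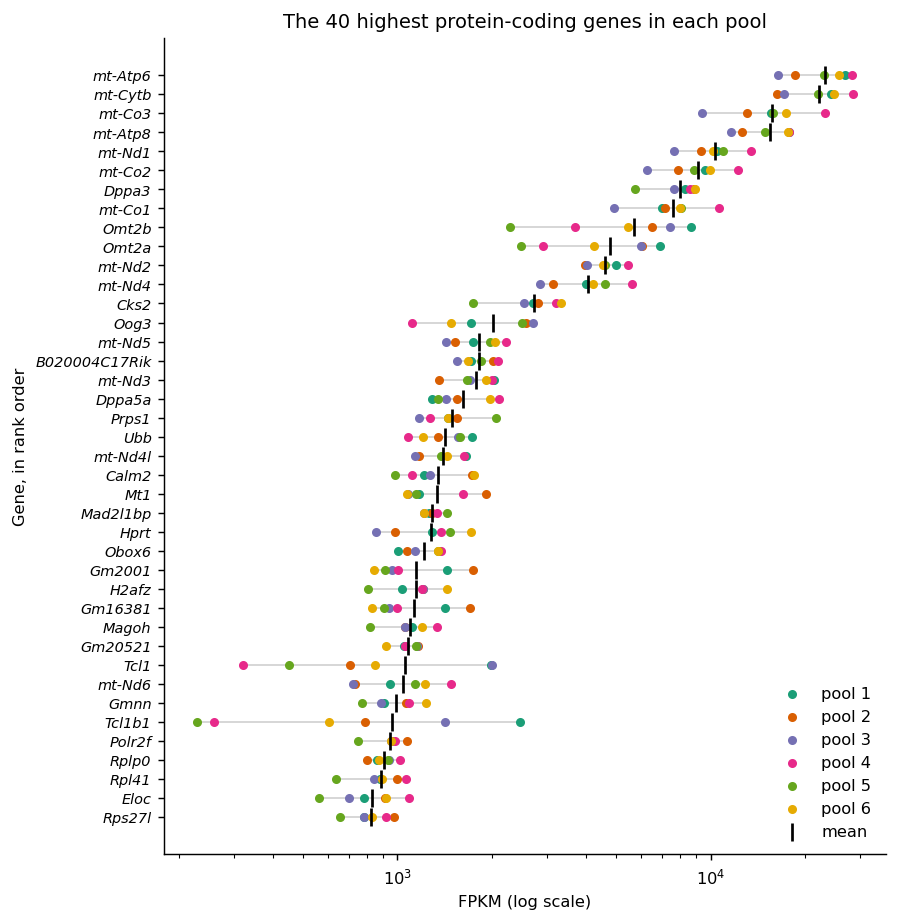
FPKM (log scale) of the 40 highest protein-coding genes, 1 point per pool and a black bar at the mean. The mitochondrial genes and Dppa3 lead; Tcl1 and Tcl1b1 have the widest spread, from 320 to 2009 and from 229 to 2469 FPKM.

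Oocyte and germ-line genes had the highest mean share after the mitochondrial genome. The 28 members held 7.84% ± 2.04 of protein-coding FPKM, although in pool 5 the 35 genes of the 2-cell class held slightly more (5.72% against 5.42%). Dppa3, also called Stella, protects maternal DNA methylation in the zygote. It was the highest nuclear protein-coding gene, with 5727 FPKM in pool 5, a median of 8424 and a highest value of 8941. Pool 5 lay below the other 5, which spanned only 7663 to 8941. The adjacent genes Omt2b and Omt2a, transcripts of the maturing oocyte, followed at 5680 ± 2378 and 4757 ± 1821 FPKM. Omt2b ran from 2285 FPKM in pool 5 to 8683 in pool 1, and Omt2a from 2484 to 6890 in the same pools. For both genes pools 1 to 3 lay above pools 4 to 6 without overlap. Oog3, an oogenesin of the Prame-like family, had 1116 to 2707 FPKM with a median of 2106. Dppa5a, a germ-cell and pluripotency RNA-binding protein, had 1288 to 2110 with a median of 1490 and did not share the pattern of Omt2a and Omt2b.

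The Tcl1 genes, a cluster of 5 members at chr12:105146014-105222793 whose founder is a coactivator of the kinase Akt, were the most variable of all members. Their summed level was 6513, 2176 and 4870 FPKM in pools 1, 2 and 3, and 846, 852 and 2057 FPKM in pools 4, 5 and 6. Tcl1 spanned 320 to 2009 FPKM with a median of 777, Tcl1b1 229 to 2469 with a median of 697, and Tcl1b3 95.5 to 1094 with a median of 342. Tcl1b2 (52.3 to 494) and Tcl1b4 (25.8 to 468) had 9.46-fold and 18.1-fold ranges. The CV of the 5 genes lay between 71.7% and 89.2%, against 3.96% expected from counting alone for the median member. Pools 1 and 3 were the highest in all 5 genes and pools 4 and 5 the lowest.

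Other maternal messages also differed between pools. Btg4, an adaptor that recruits the deadenylase for maternal mRNA removal, ran from 174 FPKM in pool 4 to 652 in pool 3 with a median of 364. Oosp1, an oocyte-secreted protein, ran from 299 to 865 with a median of 672. Bcl2l10, a Bcl-2 family member of the oocyte, ran from 79.9 in pool 4 to 399 in pool 3 with a median of 131. The summed share of the class was 9.80%, 9.01% and 9.95% in pools 1, 2 and 3, and 5.61%, 5.42% and 7.25% in pools 4, 5 and 6. A few genes weigh heavily in this sum. Omt2a and Omt2b together summed to 15573 FPKM in pool 1 and 4769 in pool 5, and the Tcl1 genes to 6513 and 852. Pools 1 to 3 carry replicate number 1 in the titles and pools 4 to 6 number 2. What the number stands for is not given in the labels, and its part in the spread was not tested. In 15 of the 28 genes every pool numbered 1 lay above every pool numbered 2. Over all 300 members this held for 37 (12.3%), near the 10.6% of the 8936 protein-coding genes whose mean was 1 FPKM or more, which serve as background from here on. The reverse order held for 26 members (8.67%), against 4.2% of the background, among them 5 genes of the mitochondrial genome. In such bulk pools fewer cells holding a transcript, less of it per cell and a larger total of other transcripts cannot be told apart.

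**Figure D3:**
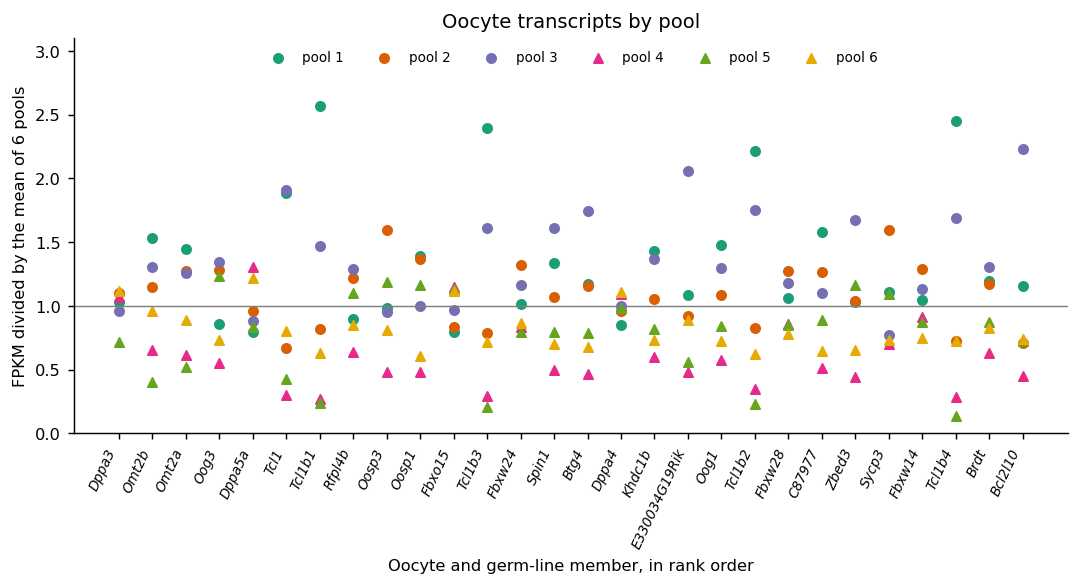
Level of each of the 28 oocyte and germ-line members, as FPKM divided by its mean over the 6 pools; circles are pools numbered 1 in the titles and triangles those numbered 2. In Omt2a, Omt2b and Btg4 all circles lie above all triangles, the Tcl1 genes have the widest spread, and Dppa3, Dppa4 and Dppa5a are not ordered that way.

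The 3′ ends were read from the GENCODE M21 transcripts (mm10), which the ranking did not use. The cytoplasmic polyadenylation element, spelled here as TTTTAT or TTTTAAT, is the element by which stored oocyte messages are handled. It was searched on the transcript strand in the last 100 bases of the 3′ UTR. It occurred in 74 of 269 members with a searchable 3′ UTR (27.5%), in 18.3% of the next 300 genes of the ranking and in 19.9% of the background. Among the oocyte and germ-line members it occurred in 15 of 27 (55.6%), including Omt2a, Omt2b, Oog3, Tcl1, Btg4 and Bcl2l10, and it was not found in Dppa3, Dppa5a or the 4 Tcl1b genes. The next highest shares were 4 of 8 (50%) for signalling, cytoskeleton and nuclear import and 17 of 45 (37.8%) for the unassigned members. The polyadenylation signal AATAAA or ATTAAA was found in the last 40 bases of 77.7% of members and 77.5% of the background. A match is a description of the letters only. The windows below are shown because they hold the element, in capitals, at the ends of leading oocyte, cell cycle and 2-cell members.
Omt2b: gttttaacggTTTTATaataaataaaagtt
Omt2a: gttttaacggTTTTATaataaataaaagtt
Oog3: taataaatgtgttaactttgTTTTATtttt
Tcl1: atgtgtgggaTTTTATgtggttctatttta
Cks2: taaatgcctgTTTTATtttacctgttttgt
Gmnn: ttttaatccgTTTTATgtaaatagcatttt
Gm5662: atttttttctTTTTAATatgttcattatat

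Each window has 30 bases, written 5′ to 3′ on the transcript strand. That of Omt2b lies at chr9:78329557-78329586 on the plus strand and that of Omt2a at chr9:78312014-78312043 on the minus strand, and both hold the same letters, with an AATAAA shortly after the element. Those of Oog3 (chr4:144157557-144157586), Tcl1 (chr12:105216795-105216824), Gmnn (chr13:24751911-24751940) and Gm5662 (chr12:88270678-88270707) are on the minus strand, and that of Cks2 (chr13:51650600-51650629) on the plus strand.

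Genes of the 2-cell programme and its gene clusters numbered 35 and held 4.69% ± 0.983, from 3.53% to 5.72%. Obox6, an oocyte-specific homeobox family member, led them with 1006 to 1377 FPKM, a median of 1239 and a CV of 13.3%. The 15 members in a cluster at chr12:87494721-88274500 were mostly predicted genes, 10 of them with 1 exon, and included Gm2001 (1149 ± 358 FPKM), Gm16381 (1133 ± 349), Gm5662 (773 ± 429) and Gm2016 (638 ± 342), a gene used as a marker of this stage. Gm2042 and Gm10436 share 90.03% and 59.49% of their windows with the oogenesin Oog1, which lies in the same interval but is counted with the oocyte genes. The summed level of the 15 was highest in pool 5 (12375 FPKM) and pool 2 (11426), and lowest in pool 4 (5803) and pool 6 (4947). This order differs from that of the Tcl1 genes, which were near their lowest in pool 5. Gm2056 (139 to 932 FPKM, median 448) and Gm6803 (244 to 905, median 379) had the highest CV of the cluster, 59.9% and 58.6%.

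A cluster of 8 members at chr13:119827961-120318178 included D13Ertd608e (817 ± 116 FPKM) and Tcstv3 (544 ± 137), and its sum ran from 3671 to 5253 FPKM with pool 2 highest. Outside this class, a cluster of 8 members left unassigned at chr4:73607881-73905953 summed to between 851 FPKM (pool 6) and 2360 (pool 5). The 3 Trim43 genes, by contrast, had a median CV of only 15.3%, with Trim43b at 641 to 891 FPKM and a median of 659. Usp17lb, a deubiquitinase of the 2-cell stage, had 794 FPKM in pool 5 and 353 to 505 in the others. Of the 35 members of the class, 21 had more than 50% of their windows in another gene. All windows of Gm2001 occur in Gm16381 and the reverse, so their levels cannot be separated. Zscan4d and the other listed Zscan4 genes ranked from 433 downward and were not members.

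**Figure D4:**
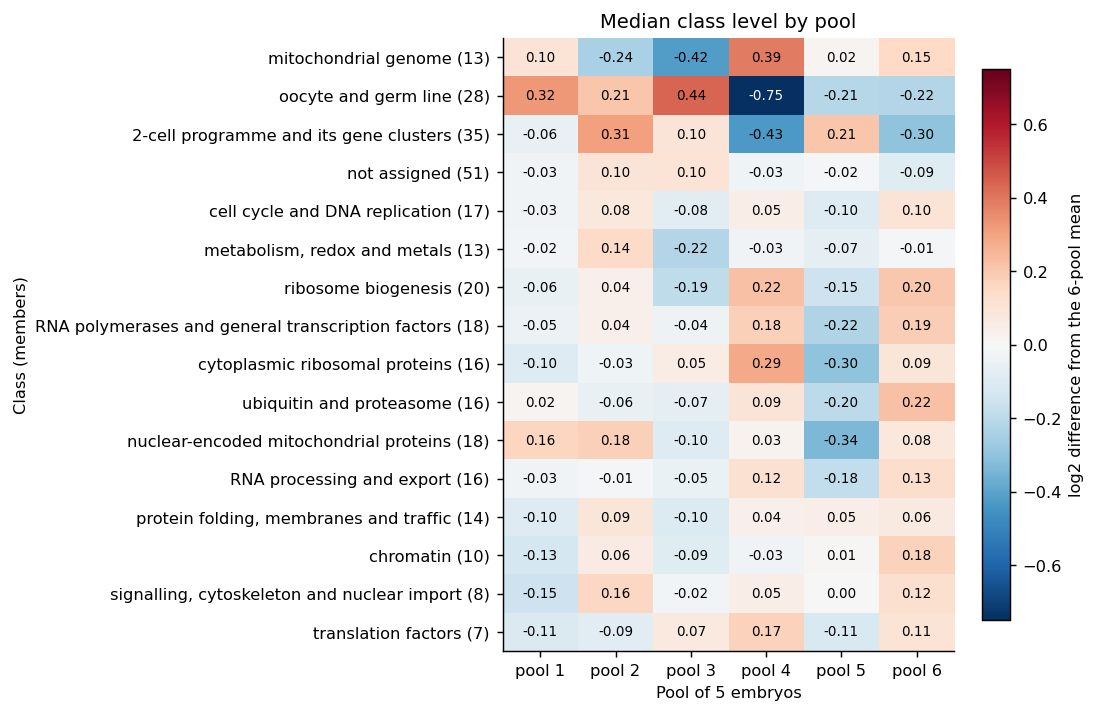
Level of each class by pool: the log2(FPKM + 1) of each gene minus its mean over the 6 pools, as the median over the class's members (their number in parentheses). Oocyte and germ-line genes run from 0.44 in pool 3 to -0.75 in pool 4, 2-cell genes from 0.31 in pool 2 to -0.43 in pool 4, and mitochondrial genes from -0.42 in pool 3 to 0.39 in pool 4.

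Cell cycle and DNA replication genes (17 members, 2.52% ± 0.226) had the lowest median CV of the 15 named classes and the unassigned genes, 13.5%. Cks2, a small subunit of cyclin-dependent kinases, was the highest nuclear protein-coding gene after the oocyte genes Dppa3, Omt2b and Omt2a. It had 1744 to 3321 FPKM with a median of 2762, and pool 5 was the lowest. Of its windows, 29.7% occur in the pseudogene Gm15452, listed at 1986 ± 458 FPKM. Mad2l1bp, which silences the spindle checkpoint, stayed between 1216 and 1436 FPKM, a 1.18-fold range. Gmnn, the replication licensing inhibitor geminin, had 772 to 1234 FPKM, and Cks1b 680 to 902. Pttg1, the securin that holds back separase, was the widest, from 440 to 951 FPKM.

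Metabolic genes (13 members, 2.18% ± 0.171) were led by Prps1, an enzyme of nucleotide synthesis, at 1492 ± 310 FPKM. Hprt, of purine salvage, had 1282 ± 320 and Gcsh, of the glycine cleavage system, 794 ± 102. The metallothionein Mt1, which binds zinc and copper and ranked between Prps1 and Hprt, had 1071 to 1917 FPKM and Mt2 369 to 752, each highest in pool 2. Prdx2, a peroxide-removing enzyme, had 569 ± 197 FPKM, with pool 5 lowest and pool 1 highest at 854, and Fth1, the ferritin heavy chain, from 435 to 934. Ubb, a polyubiquitin gene, led the 16 genes of ubiquitin and the proteasome (1.41% ± 0.0443) with 1077 to 1725 FPKM. Of the windows of Ubb, 55.3% occur in the pseudogene Gm1821, listed at 1241 ± 223 FPKM, so the level of Ubb is uncertain. The proteasome members of the class were led by Psma6 (457 ± 93.6), Psmb1 (402 ± 56.6) and Psmb2 (325 ± 69.6). The share of this class spanned only 1.35% to 1.48% over the pools.

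Machinery for making RNA and ribosomes was spread over several classes. Ribosome biogenesis (20 members, 2.10% ± 0.211) was led by the pre-60S factor Brix1 (816 ± 155 FPKM), the snoRNP protein Snu13 (812 ± 134), the rRNA-processing factor Mphosph6 (726 ± 267) and the snoRNP protein Nhp2 (588 ± 67.2). RNA polymerases and general transcription factors (18 members, 1.75% ± 0.182) included 6 subunits of RNA polymerase II, among them Polr2f (945 ± 107) and Polr2d (599 ± 62.5), and 3 of Mediator. Supt4a, an elongation factor, had 807 ± 99.2 and Eloc, elongin C, 827 ± 186 FPKM. RNA processing and export (16 members, 1.36% ± 0.0946) was led by the exon junction protein Magoh at 1096 ± 174, the Sm protein Snrpd1 at 484 ± 113 and the nuclear poly(A)-binding Pabpn1 at 456 ± 44.1. Pabpn1 overlaps Gm20521 (1083 ± 94.5) on the same strand, so the 2 levels cannot be separated.

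Cytoplasmic ribosomal proteins (16 members, 1.54% ± 0.164) were led by Rplp0, the stalk protein, at 798 to 1018 FPKM with a CV of 8.47%, followed by Rpl41 (885 ± 148) and Rps27l (823 ± 114). Of the 89 genes of a ribosomal protein list 88 reached a mean of 1 FPKM, and the median rank was 730, so most lay outside the 300. In 15 of the 16 members some windows occur in another gene. The class level was highest in pool 4 and lowest in pool 5. Translation factors (7 members, 0.542% ± 0.0451) included Eif1 (481 ± 53.8), Bzw1 (442 ± 40.4) and the cap-binding protein Eif4e (384 ± 55.1).

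Nuclear-encoded mitochondrial proteins (18 members, 1.36% ± 0.146) held far less than the mitochondrial genome. Cox8a, a cytochrome oxidase subunit, had 816 ± 192 FPKM, the mitophagy receptor Fundc1 409 ± 198, the mitochondrial ribosomal protein Mrpl34 375 ± 80.1 and the import chaperone Timm10 363 ± 118. Of a list of 106 nuclear respiratory chain genes, 5 were members. Chromatin proteins (10 members, 0.973% ± 0.0875) were led by the histone variant H2afz at 1148 ± 213 and the replication-independent histone H3f3b at 806 ± 91.7. Protein folding, membranes and traffic (14 members, 1.04% ± 0.0961) were led by Selenos and Bcap31, both of the endoplasmic reticulum, at 717 ± 81.4 and 588 ± 117. Signalling, cytoskeleton and nuclear import (8 members, 0.844% ± 0.110) were led by Calm2, a calmodulin gene, at 1344 ± 323. The dynein light chain Dynll1 had 440 ± 81.8 and the importin Kpna2 383 ± 42.4. Of the windows of Kpna2, 91.0% occur in the unassigned member Gm10184 (429 ± 51.8), so the 2 levels cannot be separated. The 51 genes left unassigned held 4.46% ± 0.287, led by B020004C17Rik at 1818 ± 210 FPKM.

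Shares of other gene lists among the 300 can be read against the 1.37% that 300 genes make of all protein-coding genes and the 3.36% that they make of the background. The list of oocyte and maternal genes had 25 of 107 members (23.4%), the 2-cell list 15 of 66 (22.7%) and the ribosomal protein list 17 of 89 (19.1%). By its name pattern the latter took in the 16 members of the class and Rps19bp1, which is no ribosomal protein. The cell cycle list had 9 of 89 (10.1%) and the proteasome and ubiquitin list 11 of 169 (6.51%). The lists for chaperones had 2 of 111 (1.80%), for transport and import 6 of 446 (1.35%) and for the cytoskeleton 1 of 87 (1.15%).

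The median CV of the members between pools was 20.9%, beside a median of 3.96% for counting error alone. In 289 of 300 (96.3%) the CV was more than 2 times the counting error, compared with 89.7% of the next 300 genes and 42.8% of the background. The next 300 genes of the ranking had a median CV of 20.9% too, with a counting error of 5.83%. The background genes had a median CV of 34.3% and a counting error of 18.98%, both higher than in the members, which had a median of 658 reads per pool against 28.6. The highest pool was at least 2-fold above the lowest in 102 members (34.0%), compared with 36.7% of the next 300 genes and 69.1% of the background. Without pools 4 and 6 this count was 44 members, and the share of the background 50.7%. Members were chosen by level and so have more reads. Their contrasts with the background in range and in CV over counting error cannot be separated from that choice. Over all 6 pools, a range of at least 2-fold was found in 21 of 28 oocyte and germ-line genes and 21 of 35 genes of the 2-cell class. It was also found in 6 of 13 metabolic genes, 8 of 18 nuclear-encoded mitochondrial ones and 21 of 51 unassigned genes. Ribosome biogenesis had 2 of its 20 members with such a range and cell cycle 1 of 17. The steadiest members were Gm12789 (345 ± 18.4 FPKM, CV 5.34%), the snurportin gene Snupn (393 ± 22.4), Gpbp1 (469 ± 28.2), Mad2l1bp, the sorting nexin Snx6 (182 ± 12.1), the Mediator subunit Med29 (307 ± 22.3), the pre-60S factor Rsl24d1 (180 ± 14.4) and the initiation factor Eif2s1 (199 ± 16.5). In 12 members (4.00%) 1 pool stood apart from the other 5 by Dixon's ratio, against 4.33% of the next 300 genes and 6.75% of the background.

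**Figure D5:**
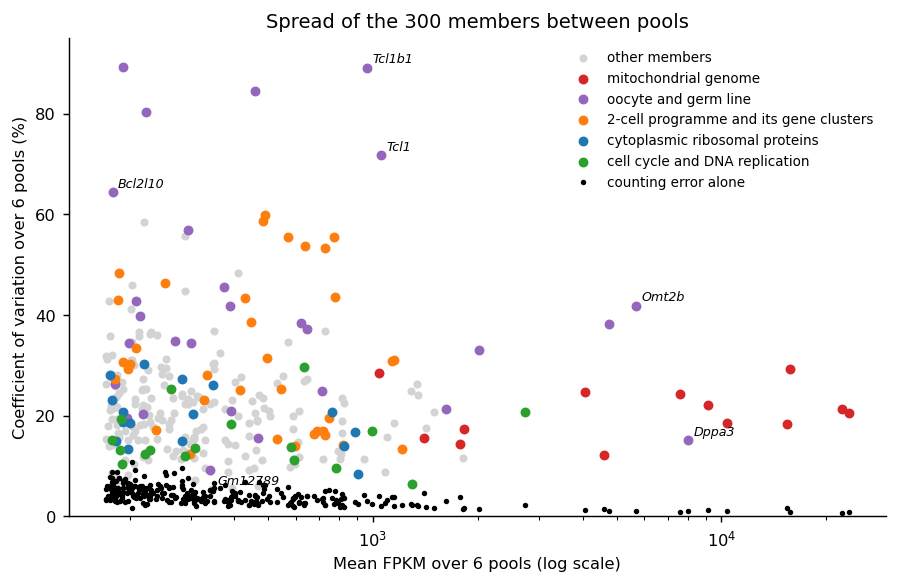
Coefficient of variation over the 6 pools (%) against mean FPKM (log scale) for each of the 300 members, coloured by class; small black points give the value counting error alone would produce. The Tcl1 genes and Bcl2l10 lie at the top, between 64.3% and 89.2%, and Gm12789 near the bottom at 5.34%.

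Gene structure was compared with the background. Of the 298 found in GENCODE M21, 35 (11.7%) had a single exon, against 3.76% of the background, and 13 of these were the mitochondrial genes and 12 were of the 2-cell class. The median coding length was 591 bases, against 780 in the next 300 genes and 1197 in the background, and the median 3′ UTR was 338 bases, against 402 and 809. The length that FPKM divides by enters the ranking itself. The median GC content was 45.8%, against 47.7% and 48.6%. Members often lay near each other, 114 of the 287 nuclear ones (39.7%) being within 500000 bases of another member, against 86 of 300 (28.7%) for the next 300 genes. Chromosome 12, which carries the Tcl1 genes and the cluster with Gm2016, held 36 of the 300 members but only 3.76% of the background genes. In 57 of 298 members more than 50% of the windows occur in another gene, and their own level is uncertain. Recovered reads that were not whole numbers were more widespread. They occurred in at least 1 pool for 275 of 300 members (91.7%) and 64.3% of the background.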

How the data were processed

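Messenger RNA of 6 pools of 5 embryos was amplified with 13 PCR cycles, made into Nextera XT libraries and sequenced with paired reads of 50 and 25 bases, per the labels' protocols. The submitters' processing notes name mm10 and Trimmomatic, Trim Galore, cutadapt, STAR and featureCounts; for annotation and strand setting nothing is given in the sources used here. The authors deposited FPKM values with a length for each gene, and 0 spike-in rows. Reads were recovered as FPKM times length over the value of 1 read; 55.6% to 57.9% of values were whole (within 0.001 read), how reads that fit several genes were counted is not given, and a count test was not used. Counting error takes reads as independent, which PCR copies are not. Depth is unequal (907210 to 1555431 reads).

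Protein-coding genes were ranked by mean FPKM with Python 3.11.15, pandas 2.3.3 and numpy 2.4.6, and spread and ratio steps were tested on simulated data. Members, gene lists, markers and the classes (sorted by hand from gene names) were chosen with earlier results of these data known. Genes named are the 25 highest, the 4 highest of each class or list, the 8 with the lowest and the 8 with the highest CV, ranks 296 to 305 and genes apart by Dixon's ratio among the first 100 ranks; cluster genes and markers were named after their values were seen. Not every gene that the rule names is described. Features come from GENCODE M21, matched by gene identifier without version. A search of promoters in the RefSeq table (GRCm38.p6) was void, since only 199 of 300 members were matched. Alternatives were other rankings, scalings, filters and left-out pools.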

Additional observations from a re-analysis of the deposited data

Results flagged for a closer look

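In 12 of the 300 members (4.00%), against 6.75% of the background, 1 pool stood apart from the other 5: its gap to the nearest pool, divided by the range of all 6, was above Dixon's critical ratio for 6 values. Chance alone gives such a gap in about 1 of 20 groups. The 6 that fall under the rule for named genes are given here, not all of them described above. Of these, Usp17lb and D8Ertd738e were named for this gap. Ndufa2, a complex I subunit, was lowest in pool 5 (ratio 0.745), and D8Ertd738e was lowest in the same pool (0.731). Usp17lb was highest in pool 5 (0.655). The import receptor gene Tomm22 (0.714) and the Mediator gene Med29 (0.628) were highest in pool 4. Snx6 was lowest in pool 3 (0.667).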

How the results depend on the processing

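Of the 300 members, 285 to 299 were kept when genes were ranked by the median, by mean logarithms with a pseudocount of 1 or 0.1, after rescaling or among genes of at least 500 bases, all 300 among genes above 0 in all 6 pools, and 291 to 297 without 1 pool; without the division by length 188 were kept. Leaving out pools 4 and 6, an alternative chosen after seeing the data, kept 288. The share of protein-coding FPKM was 63.4% to 65.1% without 1 pool. It moved by more than its SD with all gene types in the total (36.98%), without the mitochondrial genome (49.13%) and as a share of reads (39.59%). The median CV was 19.3% to 21.6% without 1 pool. It was 18.79% within pools of the same title number and 17.79% without pools 4 and 6, both chosen after seeing the data. Members with at least a 2-fold range numbered 75 to 98 without 1 pool and 44 without pools 4 and 6, where fewer pools make a smaller range. The share of background genes with that range was 83.2% with no filter, 53.14% at a mean of 5 FPKM and 50.65% without pools 4 and 6. Among genes of at least 500 bases, mt-Atp8, mt-Nd3 and mt-Nd4l dropped out of the 25 highest, and without the division by length mt-Nd4l fell outside the 300. Scaling pools to equal sums without the mitochondrial genome gave a median CV of 22.3% and 103 members with a 2-fold range. Within the title pairs the median CV was 21.4%; no test between groups was run, so there was none to block by replicate number. Depth limits what can be said of the low genes of the background, whose counting error was 18.98%, more than of the members.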
